A study of Thlaspi arvense with 6 samples.

Results

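The transcripts described here are those of the core circadian clock in the nectaries of pennycress (Thlaspi arvense), an oilseed relative of Arabidopsis. The members were the pennycress loci whose best Arabidopsis match is 1 of 10 listed clock genes, namely CCA1, LHY, TOC1, PRR3, PRR5, PRR7, PRR9, GI, ELF3 and LUX. They came to 10 of the 12335 loci in the deposited table. CCA1, LHY, PRR3, PRR7, PRR9, GI, ELF3 and LUX had 1 locus each, TOC1 had 2, and PRR5 had none by this rule. The rule used the annotation and no measured difference, but the list was chosen with earlier results of these data known.

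RNA was sequenced from nectaries of cultivar MN108 at 2 stages, 3 samples per stage. Immature nectaries, from flowers equivalent to Arabidopsis Stages 11 to 12, do not yet secrete, and mature nectaries, from Stages 14 to 15, secrete nectar. All 6 samples were hand-dissected from plants of about 40 days grown in 16 h of light and 8 h of dark, over several days and between 4 and 8 h after dawn. Each sample was a pool of about 100 nectaries per the labels, with a different set of plants behind each pool, and no hour is given for a single pool. The labels name no transgene or treatment for either group, and a single cultivar was studied.

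The plant clock is a loop of transcription factors that repress each other in turn through the day. In Arabidopsis the MYB factors CCA1 and LHY peak around dawn and repress the genes of the evening. The pseudo-response regulators then follow one another from PRR9 in the morning to TOC1 near dusk and repress CCA1 and LHY, while GI accumulates in the afternoon, and ELF3 and LUX act together in the evening complex.

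Mature nectaries held more CCA1, LHY and ELF3 transcript than immature ones, and 6 other clock loci did not pass the test between the stages. At those 6, mature replicate 1 held 1.49 to 4.20 times the next highest mature sample for each of them. LHY went the other way, with less in mature replicate 1 than in the other mature samples. Without mature replicate 1, PRR3 and TOC1 locus Ta09787 were lower in mature nectaries, 2 of 8 clock loci against 38.8% of all loci tested. TOC1 locus Ta01854 was then too low to be tested, and was lower once low loci were let in, beside 38.3% of all loci.

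Levels are normalized read counts per locus, and a locus was tested where its mean over a stage reached 100. The test was limma on log2(value + 1), and a locus was called at an adjusted p under 0.05 over all 11780 loci tested. Of the 9 clock loci tested, 3 were called higher in mature nectaries and 0 lower, by limma. At an unadjusted p under 0.05, and with voom in place of the plain log2 values, the counts were also 3 and 0. Over all loci tested 28.4% were called higher and 35.9% lower, so the share of clock loci called higher was close to the background. CCA1 and LHY also passed 2-fold in mean level, as 13.8% of all loci did upward and 23.0% downward. The stages did not overlap at CCA1, LHY and ELF3, with mature above, as at 30.9% of all loci tested, and at 0 clock loci with mature below, as at 39.1%. The median log2 fold change was 0.03 over the 9 clock loci and -0.09 over all loci tested. In pooled tissue, a change in the number of cells of a type and a change in RNA per cell cannot be told apart.

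The libraries summed to between 10.6 M and 22.7 M normalized counts, or approximately 11.7 M to 16.9 M reads as estimated from the steps between values. Ribosomal RNA took 12.6% to 62.9% of each sum, which left approximately 4.32 M to 14.7 M reads outside ribosomal and organelle transcripts, the fewest in mature replicate 2. The nectary markers CRC, SWEET9 and CWINV4 were abundant in all 6 samples, and all 3 were higher in mature ones, by 1.55, 22.9 and 3.22 times in mean level. Phloem PP2-A1 (log2 fold change -1.14), stomatal FAMA (-0.80) and carpel SHP1 (-0.74) were lower, with limma adjusted p values of 0.0261, 0.0138 and 0.00489, and phloem SUC2 was not called. Loci were present for 2 of 3 listed phloem markers, 1 of 4 stomatal markers and 1 of 3 carpel and ovule markers. The part of these cell types in the clock values was not tested. Markers of pollen, present at 4 of 6 listed genes, summed to 173 to 467 normalized counts in immature samples and to 29197, 3559 and 9259 in mature replicates 1, 2 and 3. None of 4 tapetum markers had a locus. Mature replicate 1 lay more than 1.5 times above both other mature samples at 9.40% of all loci tested, and more than 1.5 times below both at 0.662%.

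**Figure D1:**
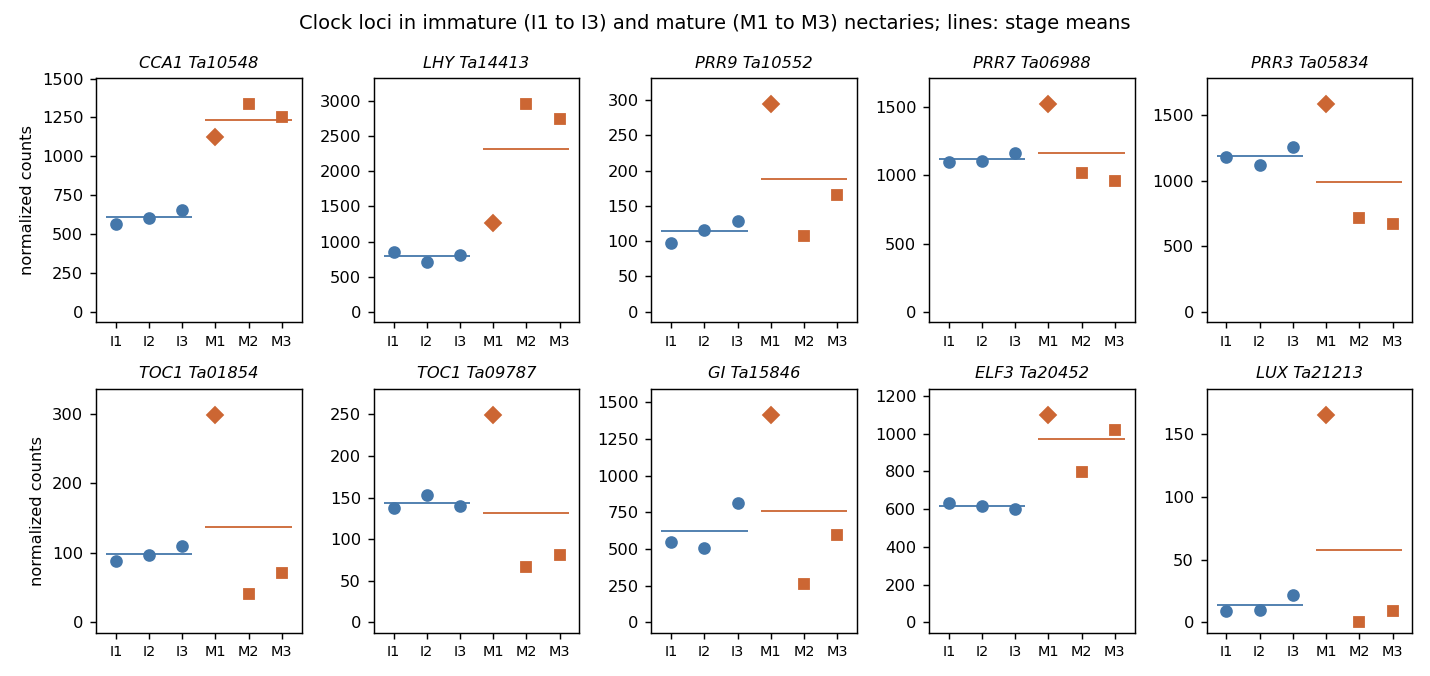
Normalized counts (y axis, linear) of the 10 clock loci in immature samples I1 to I3 (circles) and mature samples M1 (diamond), M2 and M3 (squares), with stage means as lines. CCA1, LHY and ELF3 are higher in all 3 mature samples, while at TOC1, PRR3, GI and LUX mature replicate 1 lies above, and mature replicate 2 below, every immature sample.

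The dawn genes came first in the comparison. CCA1 (Ta10548, AT2G46830) encodes the MYB repressor that, in Arabidopsis, binds the evening element of dusk genes. It stood at 565, 604 and 653 normalized counts in the immature samples and at 1122, 1334 and 1250 in the mature ones. All mature samples were above all immature ones, and mature replicate 1 was the lowest of them by a small margin. The mean went from 607 ± 44.1 to 1235 ± 107 (SD, n = 3 each), a ratio of 2.03. This is a log2 fold change of 1.02 with a standard error of 0.13 and a limma adjusted p of 0.000295.

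LHY (Ta14413, AT1G01060), the close relative of CCA1 with a largely overlapping role, stood at 847, 715 and 811 in the immature samples and at 1270, 2954 and 2744 in the mature ones. Every mature sample was again above every immature one. Mature replicate 1 held 0.43 times the level of mature replicate 2, which set the wide spread of the mature mean, 2323 ± 918 against 791 ± 68.2 (SD, n = 3 each). On the log2 scale the change was 1.46 with a standard error of 0.30, a 95% interval from 0.76 to 2.16 and a limma adjusted p of 0.00326. With that sample left out it was 1.85, with an adjusted p of 3.5e-05.

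The ratio of LHY to CCA1 within a sample, which does not depend on how samples were scaled, was 1.499, 1.18 and 1.24 in the immature samples. It was 1.13 in mature replicate 1, 2.21 in mature replicate 2 and 2.20 in mature replicate 3. Mature replicates 2 and 3 thus held a higher ratio than any other sample, while mature replicate 1 was below the whole immature range.

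The pseudo-response regulators, which in Arabidopsis repress CCA1 and LHY from morning to dusk, gave no call in either direction with all samples. PRR9 (Ta10552, AT2G46790), the earliest of the series, stood at 98, 116 and 128 in the immature samples and at 294, 107 and 165 in the mature ones. The ranges overlapped through mature replicate 2. Between the stages the log2 fold change was 0.61 with a 95% interval from -0.17 to 1.38 and a limma adjusted p of 0.144. It passed without mature replicate 2, at 0.95 and an adjusted p of 0.0147.

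PRR7 (Ta06988, AT5G02810), which follows PRR9, was the steadiest of the family. It stood at 1098, 1103 and 1161 in the immature samples and at 1521, 1019 and 962 in the mature ones. Mature replicate 1 was above and the other mature samples below every immature value. The log2 fold change was 0.03 with a 95% interval from -0.41 to 0.46 and a limma adjusted p of 0.905.

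PRR3 (Ta05834, AT5G60100), whose Arabidopsis protein binds and stabilises TOC1, showed the same arrangement with a wider gap. Immature samples held 1183, 1123 and 1259, and mature samples 1583, 712 and 667. With all samples PRR3 was not called, with a log2 fold change of -0.38, a 95% interval from -1.09 to 0.32 and a limma adjusted p of 0.2996. Without mature replicate 1 it was -0.78, with an adjusted p of 0.0017.

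TOC1 is the dusk member of the family and the partner of CCA1 and LHY in the first described feedback loop of the Arabidopsis clock. Of its loci (both AT5G61380), Ta01854 stood at 89, 97 and 110 in the immature samples and at 298, 41 and 71 in the mature ones. The other, Ta09787, stood at 137, 153 and 140 in the immature samples and at 249, 66 and 81 in the mature ones. At both loci mature replicate 1 was above, and the other mature samples were below, all immature samples.

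With all samples the log2 fold change was -0.04 at Ta01854, with a 95% interval from -1.47 to 1.39, and -0.38 at Ta09787, with a 95% interval from -1.39 to 0.64. The limma adjusted p values were 0.961 and 0.476. Without mature replicate 1, Ta09787 was at -0.96 with an adjusted p of 0.00309. Ta01854 then fell under the limit of 100, and with that limit removed it was at -0.85 with an adjusted p of 0.0305. These are low counts, approximately 21 and 34 reads for the respective loci in mature replicate 2. The files do not say whether both loci are whole genes, and reads of near-identical copies could have been split between them.

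GI (Ta15846, AT1G22770) encodes a large plant-specific protein that, in Arabidopsis, stabilises the photoreceptor ZTL and promotes flowering in long days. It stood at 547, 508 and 815 in the immature samples and at 1414, 261 and 596 in the mature ones. The mature samples spanned the immature range on both sides. With all 6 the log2 fold change was -0.01 with a 95% interval from -1.23 to 1.21 and a limma adjusted p of 0.984. It was -0.63 without mature replicate 1, with an adjusted p of 0.151.

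The evening complex gave both a steady and an uneven gene. ELF3 (Ta20452, AT2G25930), its scaffold, stood at 631, 616 and 599 in the immature samples and at 1099, 797 and 1022 in the mature ones. Every mature sample was above every immature one, and mature replicate 1 was only 1.08 times the next highest. ELF3 rose by 0.65 on the log2 scale, with a standard error of 0.15 and a limma adjusted p of 0.00623. Without mature replicate 1 the rise was 0.55, with an adjusted p of 0.0154.

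LUX (Ta21213, AT3G46640), the DNA-binding member of the complex, stood at 9, 10 and 22 in the immature samples and at 165, 0 and 9 in the mature ones. It was near the lower end of detection everywhere but in mature replicate 1, where approximately 183 reads were counted. The 0 in mature replicate 2 allows a level of up to 5.83 normalized counts, that of 3 reads, for counting error only. LUX did not reach the limit of 100 and was not tested.

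Of the contigs with a clock match that fell outside the 10 loci, those of PRR5 and TOC1 were highest in mature replicate 1 and that of PRR3 was not. The PRR5 contig (AT5G24470) stood at 13, 17 and 26 in the immature samples and at 176, 29 and 43 in the mature ones. It shares locus Ta07744 with a more abundant contig that matches AT5G24460, which stood at 1242 in mature replicate 1 and at 83 to 231 in the other samples. Unlike at PRR3 and both TOC1 loci, mature replicates 2 and 3 were above all immature samples at the PRR5 contig. These are low counts, and the 29 of mature replicate 2 was barely above the 26 of immature replicate 3. A TOC1 contig with no locus stood at 155 in mature replicate 1 and at 37 to 85 elsewhere. All contigs reach at least 101 in some sample, so this contig and that of PRR5 are listed only because mature replicate 1 was high. A contig matching PRR3, in a locus called for another gene, stood at 190 in mature replicate 1 and at 276 and 233 in the other mature samples, above 122 to 171 in the immature ones.

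**Figure D2:**
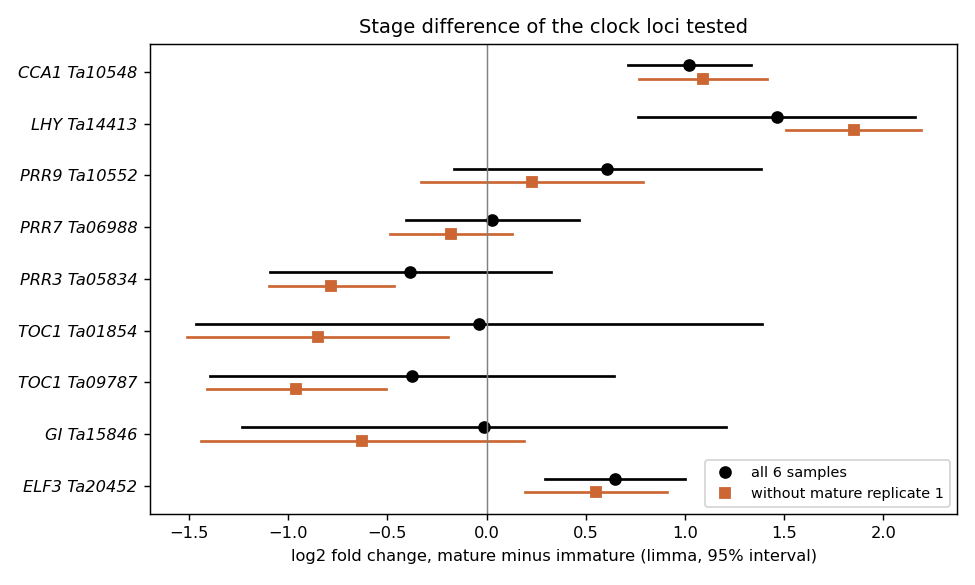
Log2 fold change of the 9 tested clock loci (x axis, mature minus immature, limma) with 95% intervals, for all 6 samples (circles) and without mature replicate 1 and with no limit on low loci (squares). CCA1, LHY and ELF3 stay above 0 in both, and the intervals of PRR3 and both TOC1 loci lie below 0 only without mature replicate 1.

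CCA1, LHY and ELF3 kept their direction and passed in all 19 alternative fits. The separate 2-fold threshold was not reached by ELF3, whose mean ratio was 1.58. Without mature replicate 1, 25.3% of all loci tested were called higher and 38.8% lower, and 3 and 2 of the 8 clock loci that could then be tested. With no limit on low loci the count of clock loci lower was 3, beside 38.3% of all loci, and these were PRR3 and both TOC1 loci.

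At most clock loci the mature samples differed among themselves more than at the median locus. The median spread between the lowest and highest mature sample was 1.25 on the log2 scale over the 9 tested clock loci and 0.47 over all loci tested. CCA1 (0.25) and ELF3 (0.46) lay under the median of all loci. Among immature samples the median spread was 0.21 and 0.30, with GI (0.68) and PRR9 (0.38) above the median of all loci. Mature replicate 1 lay more than 1.5 times above both other mature samples at 5 of the 9, namely PRR9, PRR3, GI and both TOC1 loci, against 9.40% of all loci tested. TOC1 Ta01854 reached the limit of 100 only through that sample. Among loci that reach it without that sample, the count was 4 of 8 clock loci, against 8.79% of all such loci. It lay more than 1.5 times below both at 1, LHY, against 0.662%. Mature replicate 2 lay more than 1.5 times below both others at 3 of the 9, against 12.4% of all loci tested. No immature sample stood apart in this way at any of the 9.

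The gap was negative for the dawn genes and positive for the rest, as was the median of all loci tested. On the log2 scale, mature replicate 1 minus the mean of the other mature samples was -1.16 for LHY and -0.20 for CCA1, the dawn genes. It was 0.62 for PRR7, 1.14 for PRR9, 1.20 for PRR3, 1.75 and 2.44 for the TOC1 loci, 1.84 for GI and 5.71 for LUX. ELF3 was at 0.28, close to the median of all loci tested, 0.23. The 5th to 95th percentile of all loci tested was -0.28 to 1.12, and CCA1, PRR7 and ELF3 lay inside it. Of the dawn genes, LHY alone lay outside. For LUX this value depends on the 0 in mature replicate 2.

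Ratios within a sample showed the gap without any scaling between samples. LHY to GI was 1.55, 1.41 and 0.995 before secretion and 0.898, 11.3 and 4.60 during it. LHY to TOC1 (Ta09787) went from 6.18, 4.67 and 5.79 to 5.10, 44.8 and 33.9. LHY to PRR3 went from 0.716, 0.637 and 0.644 to 0.802, 4.15 and 4.11. In each of these ratios mature replicate 1 was near the immature samples, and mature replicates 2 and 3 were far above all others.

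**Figure D3:**
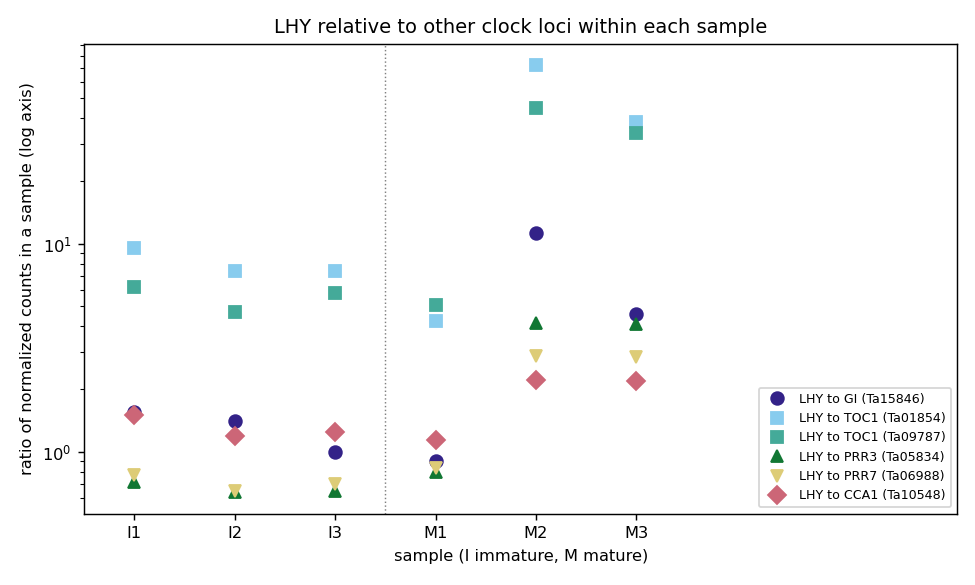
Ratio of LHY to 6 other clock loci within each sample (y axis, log scale), for immature samples I1 to I3 and mature samples M1 to M3. Mature replicates 2 and 3 hold the highest ratios for every locus shown, and mature replicate 1 lies closer to the immature samples than to them.

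A single value for each sample was formed as the mean log2 level of CCA1 and LHY minus that of TOC1, GI, LUX, ELF3 and PRR3. Immature samples gave 1.85, 1.74 and 1.57, and mature samples 1.10, 4.52 and 3.45. LUX was not tested, was at 0 in mature replicate 2 and is listed only because mature replicate 1 was high. These values lean on it. Without LUX they were 0.99, 0.91 and 0.88 in immature samples, and 0.74, 3.23 and 2.63 in mature ones. In both forms mature replicate 1 was the lowest and the other mature samples the highest of the 6. With LUX the stage means were 1.72 ± 0.14 and 3.02 ± 1.75 (SD, n = 3 each), so the difference of 1.30 was smaller than the spread among the mature samples.

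Pollen markers were also highest in mature replicate 1 and lowest among mature samples in mature replicate 2, the order seen at TOC1 (Ta01854 and Ta09787) and GI. VGD1, a pollen pectin methylesterase, stood at 73, 215 and 81 in the immature samples and at 13877, 1583 and 4424 in the mature ones. In mature replicates 2 and 3 its level was thus far above all immature samples, where both TOC1 loci were below all of them. Other clock genes in the pollen order differed in this. ELF3 was above all immature samples in every mature sample. So was the PRR5 contig, at low counts and barely so in mature replicate 2. PRR9 was above all immature samples in mature replicates 1 and 3. GI and LUX were below all immature samples in mature replicate 2. The part of pollen RNA in the clock values was not tested.

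Other genes tied to the clock showed the stage difference more often upward than downward. Of 27 tested loci of further clock genes, 11 were higher in mature nectaries, 2 lower and 14 not called, with a median log2 fold change of 0.52. Of 15 loci of light input genes, 7 were higher, 0 lower and 8 not called by limma, with a median of 0.43. At an unadjusted p under 0.05 the light input counts were 8 higher and 1 lower, and voom called 1 lower. Of 10 loci of clock output genes, 5 were higher, 1 lower and 4 not called, with a median of 0.34. All these counts stand beside the 28.4% and 35.9% of all loci called higher and lower.

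Among the further clock genes, 4 were called with a change of over 2-fold in mean level. RVE1, a MYB factor related to CCA1 that links the clock to auxin in Arabidopsis, stood at 137, 247 and 180 in the immature samples and at 318, 593 and 646 in the mature ones. Its log2 fold change was 1.44 (limma adjusted p of 0.00382). LKP2, an F-box photoreceptor of the ZTL family, went from 130, 125 and 171 to 355, 230 and 322, at 1.08 (limma adjusted p of 0.00223). For both genes every mature sample was above every immature one.

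ELF4-L2, a relative of the evening complex member ELF4, went from 341, 362 and 210 to 752, 856 and 427, at 1.13 (limma adjusted p of 0.0108). PRMT5, an arginine methyltransferase needed for correct splicing of clock transcripts in Arabidopsis, fell from 658, 629 and 656 to 159, 103 and 130, at -2.32 (limma adjusted p of 1.8e-05). Its stages were far apart, and no other clock gene tested fell by more.

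Of the light input genes, PHOT1 alone passed 2-fold in mean level. This blue-light receptor for phototropism stood at 870, 1052 and 1349 in the immature samples and at 7225, 6288 and 6175 in the mature ones. The log2 fold change was 2.61 (limma adjusted p of 1.6e-05), and mature replicate 1 did not stand apart.

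Clock output genes with over 2-fold change were CDF2, CDF3, BBX19 and BBX25, all higher in mature nectaries. CDF2 and CDF3 belong to the DOF factors that delay flowering through CONSTANS in Arabidopsis, and the B-box proteins BBX19 and BBX25 act in light signalling. CDF2 went from 150, 129 and 127 to 269, 346 and 392, at 1.29 (limma adjusted p of 0.000348). CDF3 went from 342, 324 and 326 to 1160, 1237 and 1268, at 1.88 (limma adjusted p of 9e-06).

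BBX19 went from 233, 188 and 195 to 599, 1083 and 1160, at 2.15 (limma adjusted p of 0.000163). BBX25 went from 220, 194 and 221 to 679, 885 and 1094, at 2.04 (limma adjusted p of 4.7e-05). In CDF2, CDF3, BBX19 and BBX25, as in LHY, mature replicate 1 was the lowest of the mature samples, at CDF3 by a small margin. The 9 genes named by this rule in the wider lists passed in every alternative in which they were tested.

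**Figure D4:**
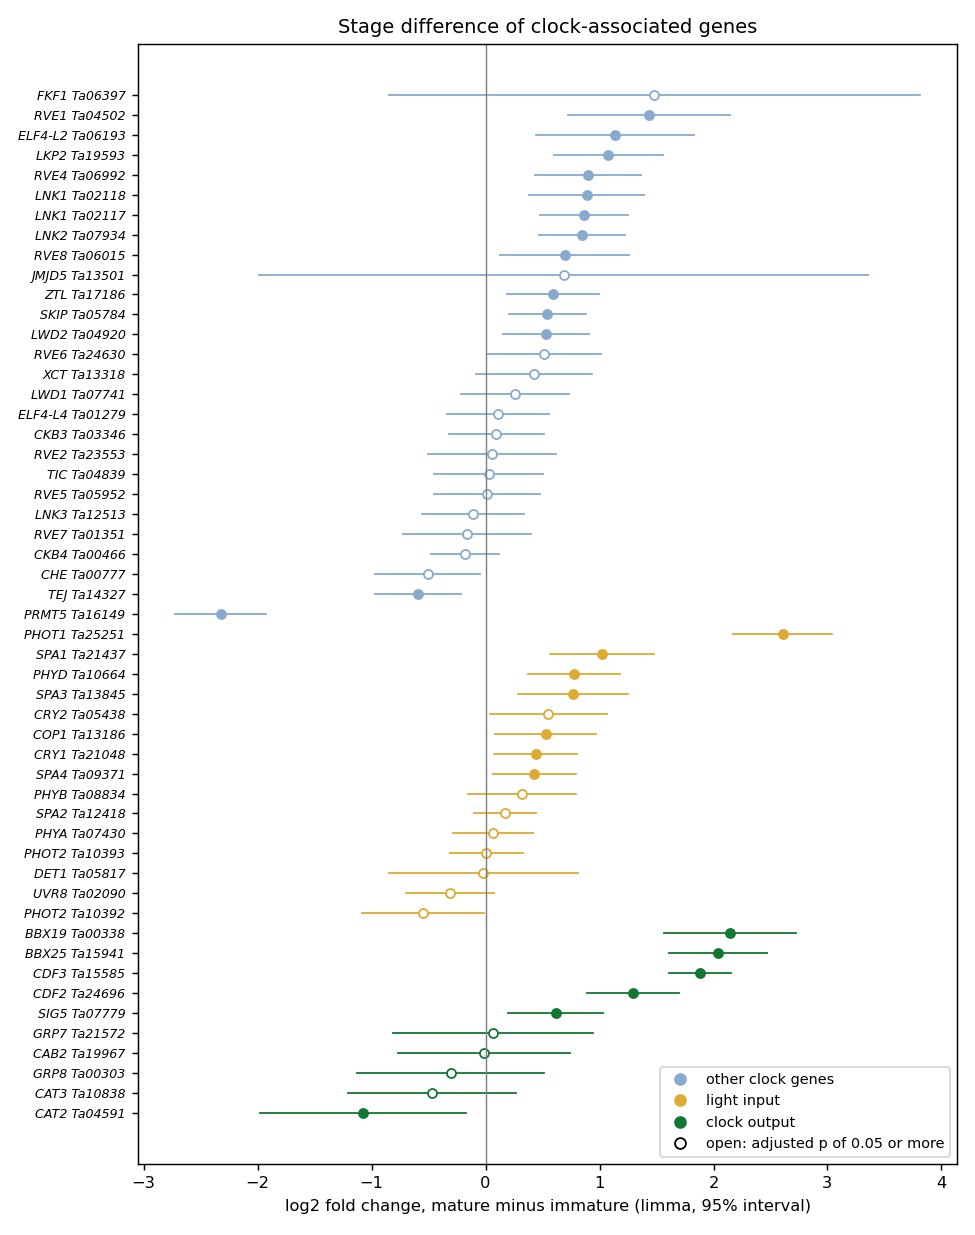
Log2 fold change (x axis, mature minus immature, limma) with 95% intervals for tested loci of further clock genes, light input genes and clock output genes; filled circles passed at an adjusted p under 0.05. PHOT1, BBX19 and BBX25 lie above 2 and PRMT5 below -2, and FKF1 and JMJD5 have the widest intervals.

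Some genes of these lists also stood apart in mature replicate 1. Those that follow were chosen after their values were seen, as a description. FKF1, the afternoon partner of GI in Arabidopsis, stood at 16, 26 and 43 in the immature samples and at 469, 23 and 38 in the mature ones. JMJD5, a jumonji protein expressed together with TOC1 in Arabidopsis, stood at 18, 25 and 44 in the immature samples and at 365, 10 and 22 in the mature ones. ELF4, the remaining member of the evening complex, stood at 7, 16 and 18 in the immature samples and at 186, 12 and 13 in the mature ones and was too low to be tested.

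In mature replicate 1 FKF1 was 12.3, JMJD5 16.6, ELF4 14.3 and LUX 18.3 times the next highest mature sample. All contigs in the table reach at least 101 in some sample, and these 4 genes stay at 44 or less in the other samples. They are thus listed only because mature replicate 1 was high, so these ratios had to be large. The PRR5 contig and the TOC1 contig with no locus are likewise listed only through that sample. FKF1 and JMJD5 gave limma adjusted p values of 0.228 and 0.621 between the stages. The clock-controlled RNA-binding protein gene GRP7 stood at 8546, 9134 and 12540 in the immature samples and at 19429, 6932 and 8347 in the mature ones. The light-harvesting gene CAB2 stood at 62452 in mature replicate 1 and at 29612 to 40759 in the other 5 samples.

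Relatives of CCA1 and LHY fell on both sides of the gap. RVE8, an activator of evening genes, stood at 209, 230 and 172 in the immature samples and at 222, 412 and 384 in the mature ones. RVE4, a relative of RVE8, stood at 423, 411 and 415 in the immature samples and at 562, 896 and 933 in the mature ones. At RVE8 mature replicate 1 was within the immature range, and at RVE4 it was between the immature and the other mature samples. RVE7 went the other way, at 516 in mature replicate 1 and 335 and 255 in the other mature samples, and RVE5 was also highest there, at 686 against 603 and 417.

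In all, mature replicate 1 was more than 1.5 times above both other mature samples at 3 and more than 1.5 times below both at 3 of 27 further clock loci. Of the 3 above, FKF1 and JMJD5 reached the limit of 100 only through that sample, which leaves 1 of 25, RVE7. The counts were 4 above and 1 below of 10 clock output loci, and 0 and 0 of 15 light input loci. All of these stand beside 9.40% and 0.662% of all loci tested. The share of further clock loci above was near the background. The shares of clock output loci above and of further clock loci below were higher than it. The 15 light input loci are too few to set a count of 0 apart from it.

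**Figure D5:**
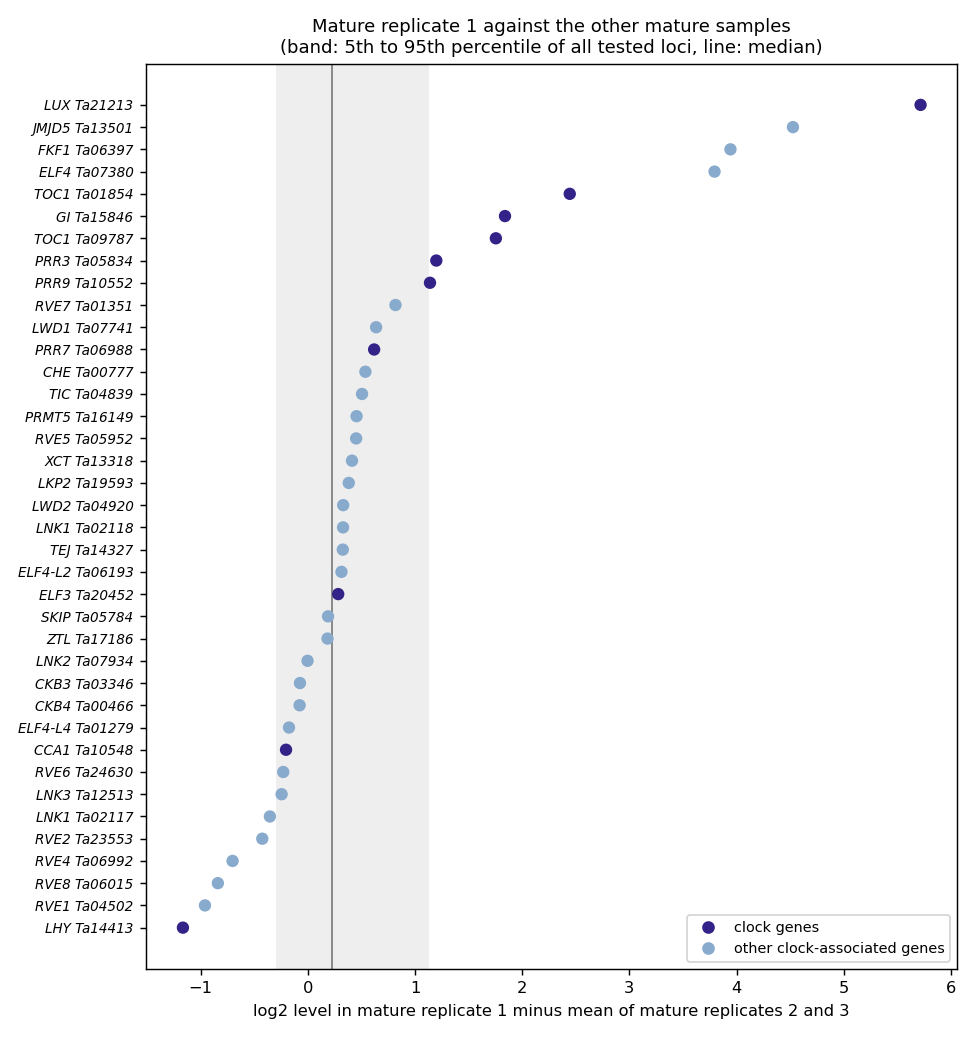
Log2 level (value + 1) in mature replicate 1 minus the mean of mature replicates 2 and 3 (x axis) for the 10 clock loci (dark) and 28 loci of further clock genes (light). The grey band spans the 5th to 95th percentile of all tested loci, -0.28 to 1.12, and the line is their median of 0.23. LUX, JMJD5, FKF1, ELF4, both TOC1 loci, GI, PRR3 and PRR9 lie to the right of the band, and LHY, RVE1, RVE8, RVE4, RVE2 and LNK1 (Ta02117) to the left; LUX, JMJD5, FKF1 and ELF4 are in the table only through mature replicate 1.

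Likeness was measured over the 6 samples as the root mean square difference of log2 values centred on each locus's mean, so a smaller value means a closer pattern. The loci named as nearest were restricted to those averaging 500 or more in a stage. The nearest to LHY were Ta09724 (AT4G18030, a methyltransferase, 0.208), Ta02914 (AT1G30080, a glycosyl hydrolase, 0.215) and Ta14912 (AT2G30490, cinnamate-4-hydroxylase, 0.251). CCA1 stood at rank 124 among all loci tested, at 0.402. Like LHY, cinnamate-4-hydroxylase was lower in mature replicate 1, at 430, than in mature replicates 2 and 3, at 939 and 1137.

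Nearest to TOC1 Ta09787 were Ta01733 (AT1G10200, 0.104), Ta01535 (AT4G26130, 0.201) and Ta04853 (AT3G22200, 0.215), with PRR3 at rank 12 (0.234). Nearest to TOC1 Ta01854 was GI itself (0.275), followed by Ta21848 (AT5G01595, 0.278) and Ta08930 (AT1G80280, 0.307). The other TOC1 locus stood at rank 10 (0.332). Among all loci tested, GI stood at rank 4 from Ta01854 and 186 from Ta09787. PRR9 stood at ranks 113 and 2196 from these loci, and PRR7 at 471 and 473. ELF3, of the evening complex, was at 3723 and 6263. LHY was far from both TOC1 loci, at ranks 10418 and 10576. CCA1 was at 8753 and 9209, and PRR3 was at 79 from Ta01854. Whether nearness to TOC1 follows time of day was not tested.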

How the data were processed

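RNA-seq was made from 3 immature and 3 mature pennycress nectary pools. The deposited scores hold, for each contig, the number of reads after upper-quartile normalization by the authors, rounded to whole numbers: reads were assembled with Trinity, merged with an earlier transcriptome and mapped with blastn (E-value cutoff 0.00001). A genome version was not given in the sources used. The authors' own ratios and p-values in the table were not used. Contigs were summed per predicted protein, and each locus was named by its most abundant contig. All contigs reached at least 101 in a sample. Because the values are not raw counts, limma 3.58.1 (R 4.3.3) with a mean-variance trend was run on log2(value + 1), two-sided, with Benjamini-Hochberg adjustment over 11780 loci. It was tested on simulated data with the same setting for the spread at every locus and in every sample. That test does not cover loci at which the mature samples differ widely. Approximate reads were the value divided by what 1 read was worth.

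All loci of the 10 genes are named, and, of each other list, those called with over 2-fold change, plus the 3 loci nearest to LHY and to each TOC1 locus. Members and lists were chosen with earlier results of these data known. Replicates were separate pools. Alternatives covered the pseudocount, the limit on low loci, scaling, contig summing, the trend, a replicate block, a 2-fold threshold and leaving out each sample.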

Additional observations from a re-analysis of the deposited data

How the results depend on the processing

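Depth limits the low loci: LUX and, in mature replicate 2, TOC1 rest on few reads. With a limit of 500 in place of 100, fewer loci were tested and 1856 were called higher and 1566 lower, against 3348 and 4225. With over 2-fold also required, 1629 and 2715 were called, and 8 higher and 1 lower of the clock-associated genes, against 23 and 3. The count of clock-associated genes called lower was 5 with samples rescaled to the upper quartile, 6 rescaled to the total without ribosomal RNA and organelles, and 5 without mature replicate 1 and no limit on low loci, where the count of clock loci called lower was 3. The cause was not tested.

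TOC1 Ta01854 turned positive with a pseudocount of 10 (0.000449), rescaled by median of ratios (0.064) and with voom on approximate reads (0.40), the last chosen after seeing the data. GI turned positive with the median of ratios (0.091) and voom (0.0036). PRR7 turned negative with the upper quartile (-0.013), with the total without ribosomal RNA and organelles (-0.12), and without mature replicate 1 and no limit (-0.18). None of these passed the threshold. With median of ratios PRR9 passed, at 0.71 and a limma adjusted p of 0.0463.

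Leaving out each sample in turn gave log2 fold changes of 0.96 to 1.09 for CCA1, 1.24 to 1.85 for LHY, 0.55 to 0.78 for ELF3, -0.63 to 0.59 for GI, -0.18 to 0.15 for PRR7, 0.23 to 0.95 for PRR9, -0.78 to -0.16 for PRR3, -0.96 to -0.01 for TOC1 Ta09787 and -0.11 to 0.56 for TOC1 Ta01854, which had no value without mature replicate 1. Clock loci called numbered 3 to 4 higher and 0 to 2 lower, clock-associated genes 16 to 24 higher and 1 to 5 lower, and all loci 2729 to 3779 higher and 3596 to 4532 lower. The fewest clock-associated genes lower, 1, came without immature replicate 2, and the most, 5, without mature replicate 1. The dawn minus evening difference ran from 0.55 to 2.27, and from 0.84 to 1.35 under the other settings. PRR5 could not be added to its evening set, since no locus was called PRR5.

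Replicate numbers did not pair the samples: same-numbered samples correlated in their deviations at -0.07, 0.01 and 0.20. With a replicate block 3 clock loci were higher and 0 lower, 24 clock-associated genes were higher and 5 lower, and 3454 and 4320 of all loci.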
